A study of Mus musculus with 9 samples.

Results

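The nuclear-encoded genes of mitochondrial oxidative phosphorylation were followed in 2 kinds of mouse medulloblastoma and in normal cerebellum. Members were the listed genes whose symbol begins with Nduf, Uqcr, Cox4 to Cox8 or Atp5, or is Sdha, Sdhb, Sdhc or Sdhd, which gave 92 of the 23360 genes in the tables. Complex I had 44 of them (including assembly factors), complex II 4, complex III 8, complex IV 20 and complex V 16. Values of at least 1 FPKM in at least 3 libraries were found for 89 members, which were tested together with all 14337 genes that met the same criterion. Ndufs5, Cox6a2 and Cox8c did not meet it.

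A1G tumours came from mice with the genotype Math1-cre;A1G;Ptch1+/-, in which Math1 regulatory sequence drives Cre in the granule neuron lineage. What A1G denotes is not described here. Math1 is another name of Atoh1, so Atoh1, used below as a marker, may not be independent of this genotype. Ptch1 tumours came from Ptch1+/- mice, so that a mutated copy of the Hedgehog receptor gene Ptch1 is common to both kinds of tumour. Cerebellum came from wild-type adult C57BL/6 mice, whereas the tumour-bearing mice were of mixed strain, so strain and tissue cannot be told apart. Each group had 3 libraries of ribosome-depleted total RNA, numbered as replicates in the labels without a statement that they came from separate animals, so p-values measure the spread between these libraries, which may be technical. The labels give no ages for the tumour-bearing mice.

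Oxidative phosphorylation passes electrons from NADH through complex I, or from succinate through complex II, by way of ubiquinone to complex III, then by cytochrome c to complex IV and oxygen, and complex V uses the resulting proton gradient to make ATP. Complexes I, III, IV and V combine nuclear-encoded subunits with a small number encoded by mitochondrial DNA, and no mitochondrially encoded gene is among those listed here. Mature neurons draw most of their ATP from this pathway, while granule neuron progenitors driven by Hedgehog signalling are known for glycolysis even when oxygen is present.

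The libraries held 2350941 to 3049987 fragments in A1G tumours, 2699234 to 9290237 in Ptch1 tumours and 3304042 to 5300936 in cerebellum. Levels below are counts-per-million scaled over all 9 libraries (CPM), and levels of different genes are compared only per length, as FPKM rescaled over the same 9 libraries. Atoh1, a marker of granule neuron progenitors, had 296 to 652 CPM in A1G tumours, 279 to 405 in Ptch1 tumours and 0 to 16.4 CPM in cerebellum, where the 0 lay under a floor of 3 fragments, or 0.788 CPM. Ptch1 had 60.04 to 299.7 CPM in A1G tumours, 52.8 to 99.996 in Ptch1 tumours and 55.9 to 181 CPM in cerebellum, and its counts do not show which copy they came from. A1G replicate 2 stood apart. It held the 299.7 CPM of Ptch1, and its level of the proliferation marker Mki67 was 620.3 CPM, against 3475 and 2597 CPM in the other A1G libraries, 3433, 3946 and 3913 CPM in Ptch1 tumours and 3.79 to 7.30 CPM in cerebellum. In the same library the oxidative phosphorylation genes lay a median of 0.23 above their A1G group means on the log2 scale. They lay 0.24 above their group means in Ptch1 replicate 2 and 0.27 below in cerebellum replicate 3. The shortest of all tested genes shifted in the same directions in these libraries, by smaller amounts given below with gene lengths. Counts are also given without A1G replicate 2 and cerebellum replicate 3, an alternative chosen after seeing the data. This leaves out the A1G library highest in the members and the cerebellum library lowest in them, and keeps Ptch1 replicate 2. The choice favours members called lower in tumours, so a higher count there is no check of the result.

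Called members were lower in tumours than in cerebellum in all 5 complexes, with 1 exception in complex IV. Of 89 members tested, 45 (50.6%) were lower and 1 (1.12%) was higher in tumours, against 21.5% lower and 20.7% higher among all tested genes. These shares of all tested genes are the background for the counts per complex below. The fitted change was below 0 for 84 members (94.4%, against 49.5% of all tested genes), and the median over all 89 was -0.87 on the log2 scale, against 0.01 over all tested genes. A call means an adjusted p under 0.05 in the quasi-likelihood test of edgeR, adjusted by Benjamini-Hochberg across the 14337 genes, with the mean of both tumour kinds set against cerebellum unless stated. In 30 members every tumour library lay below every cerebellum library (33.7%, against 19.7% of all tested genes), and in 0 did every tumour library lie above (18.5% of all tested genes). Leaving out A1G replicate 2 and cerebellum replicate 3 together favours lower calls. The number called lower was then 49 (55.1%, against 20.3% of all tested genes). It was 29 without cerebellum replicate 1 (32.6%, against 18.8%) and 24 without cerebellum replicate 2 (27.0%, against 17.3%).

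Summed over the 92 members, the rescaled FPKM was 4631, 6323 and 4495 in A1G tumours, 5304, 7185 and 5164 in Ptch1 tumours and 11706, 10986 and 8144 in cerebellum. Every tumour library lay below every cerebellum library, and the mean was 50.1% of cerebellum in A1G tumours and 57.3% in Ptch1 tumours. Complex IV was at 47.0% of cerebellum in A1G tumours and 44.0% in Ptch1 tumours, where it was the lowest complex. In A1G tumours complex III was the lowest, at 45.4%. Complexes II, III and V also had no overlap between tumour and cerebellum libraries. Complex I did overlap, since its sum was 2661 in Ptch1 replicate 2 and 2634 in cerebellum replicate 3. In these tissue samples, fewer cells of a type and less RNA per cell cannot be told apart.

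**Figure D1:**
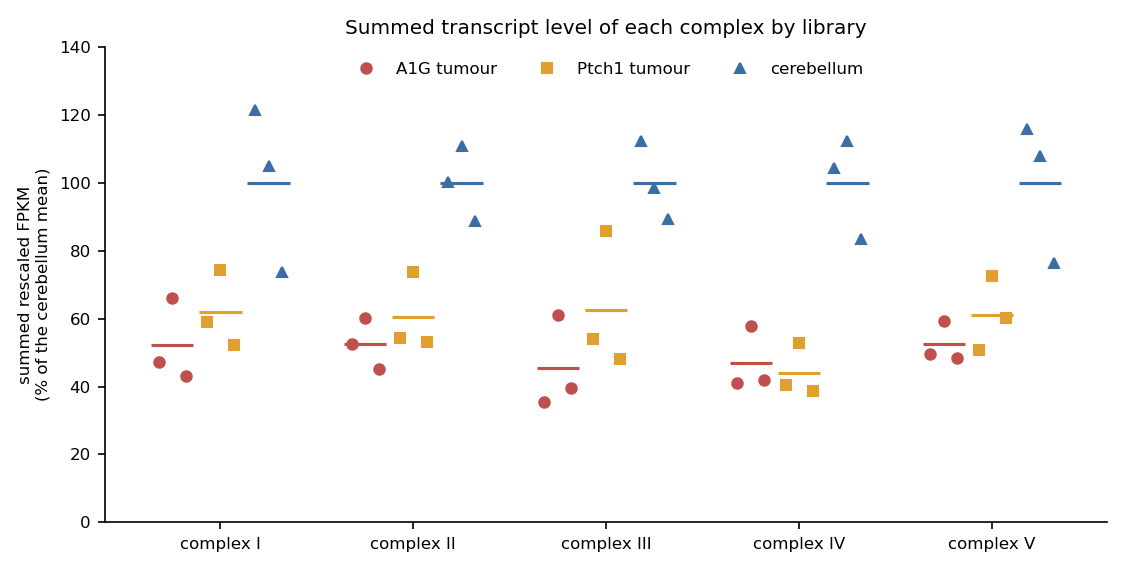
Summed rescaled FPKM of the members of each complex in each library, as a percentage of the cerebellum mean (vertical axis); points are libraries, 3 per group, and horizontal lines are group means. For complex IV the A1G mean is 47.0% and the Ptch1 mean 44.0% of cerebellum, and only complex I has a tumour library above a cerebellum library.

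The tumour libraries differed from cerebellum in the levels of cell type markers. The marker counts stand beside 21.5% lower and 20.7% higher among all tested genes. All 8 granule progenitor markers and all 8 proliferation markers were higher in tumours. The 8 proliferation markers summed to 1239 to 4585 CPM in A1G tumours, 4588 to 5735 in Ptch1 tumours and 28.0 to 33.1 CPM in cerebellum. Markers of mature granule neurons were lower for 9 of 10 and summed to 859 to 2807 CPM in A1G tumours, 807 to 1787 in Ptch1 tumours and 7762 to 8359 CPM in cerebellum. Purkinje cell markers were lower for 8 of 8, with sums of 336 to 720.0 CPM in A1G tumours, 191 to 277 in Ptch1 tumours and 8728 to 11438 CPM in cerebellum. Oligodendrocyte markers were lower for 8 of 8, with sums of 331 to 432 CPM in A1G tumours, 67.7 to 387 in Ptch1 tumours and 7679.8 to 8191 CPM in cerebellum. Of these lists only Opalin, in the oligodendrocyte list, was at 0 in every tumour library. Astrocyte and Bergmann glia markers were lower for 6 of 8, with sums of 1205 to 2267 CPM in A1G tumours, 1136 to 2316 in Ptch1 tumours and 4325 to 5198 CPM in cerebellum. Microglia markers were higher for 4 of 8, with sums of 221 to 336 CPM in A1G tumours, 138 to 242 in Ptch1 tumours and 122 to 152 CPM in cerebellum. Endothelial and pericyte markers were lower for 4 of 8 each, and erythrocyte markers for 2 of 3. The part of these marker shifts in the change of the complexes was not tested.

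Complex I, the entry point for electrons from NADH, had 22 of 43 tested members lower and none higher, with a median of -0.79. Its core, the part that carries the flavin and the iron-sulfur clusters, was lower for 6 of 7 members. Ndufv1, which binds NADH and the flavin, had 38.3, 46.2 and 39.1 CPM in A1G tumours, 40.1, 42.1 and 46.7 in Ptch1 tumours and 129, 105 and 51.5 CPM in cerebellum. Each tumour value lay below each cerebellum value, with cerebellum replicate 3 nearest to the tumours, and the log2 fold change was -1.17 (SE 0.27, adjusted p = 0.00365). Ndufs8, an iron-sulfur subunit of the arm that leads to ubiquinone, had 19.2, 21.8 and 17.3 CPM in A1G tumours, 27.9, 39.4 and 28.7 in Ptch1 tumours and 59.1, 46.5 and 40.7 CPM in cerebellum. Tumour and cerebellum libraries did not overlap, and the log2 fold change was -0.96 (SE 0.24, adjusted p = 0.00675). Ndufv2, the core member that was not called, had a log2 fold change of -0.46 (SE 0.29, adjusted p = 0.218).

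Supernumerary subunits of complex I surround the core and stabilise it, and 13 of 28 tested were lower. Ndufa11 (chr17:56717767-56722141, GRCm38), a subunit of the membrane arm, had 3.32, 16.8 and 5.76 CPM in A1G tumours, 10.99, 11.3 and 9.19 in Ptch1 tumours and 38.9, 31.3 and 38.3 CPM in cerebellum. The A1G libraries spread widely but all 6 tumour libraries lay below cerebellum, with a log2 fold change of -1.91 (SE 0.39, adjusted p = 0.00194). Ndufv3 (chr17:31520115-31531331), an accessory subunit of the NADH-binding module, had 36.9, 95.7 and 48.9 CPM in A1G tumours, 59.5, 78.4 and 63.2 in Ptch1 tumours and 224, 216 and 122 CPM in cerebellum. Its groups did not overlap, and tumours were at 34.1% of cerebellum (log2 fold change -1.55, SE 0.30, adjusted p = 0.00124). Ndufa13, which sits where the arms of complex I meet and is also known as GRIM-19, was at 34.2% of cerebellum (log2 fold change -1.55, SE 0.26, adjusted p = 0.000423). Ndufb7, the complex I member of highest mean rescaled FPKM, was not called, since its 38.3 to 96.6 CPM in tumours overlapped the 60.1 to 103 CPM of cerebellum (log2 fold change -0.24, adjusted p = 0.595).

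Assembly factors of complex I did not move as 1 group. Of 8 listed under the rule, 3 were lower, against 21.5% of all tested genes. Ndufaf3, an early assembly factor, had 9.22, 13.4 and 5.76 CPM in A1G tumours, 9.16, 10.9 and 10.7 in Ptch1 tumours and 37.3, 31.6 and 21.4 CPM in cerebellum. Every tumour library lay below cerebellum (log2 fold change -1.60, SE 0.32, adjusted p = 0.00156). Its partner in early assembly, Ndufaf4, had a log2 fold change of 0.26 (adjusted p = 0.617), and Ndufaf7, a methyltransferase that acts in complex I assembly, had 0.30 (adjusted p = 0.494), both with overlapping libraries. Atp5sl, which despite its symbol belongs to the assembly of the distal membrane arm of complex I, was at 44.7% of cerebellum (adjusted p = 0.00205). Outside the rule, 1 of 7 tested complex I assembly factors was lower (Ecsit, -0.90) and 1 higher (Lyrm2, 0.96). Among all tested genes 21.5% were lower and 20.7% higher.

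Complex II, which oxidises succinate in the tricarboxylic acid cycle and has no mitochondrially encoded subunit, had 3 of 4 members lower. The flavoprotein gene Sdha (chr13:74322254-74350280) had 71.1, 136 and 67.4 CPM in A1G tumours, 107, 118 and 111 in Ptch1 tumours and 215, 208 and 192 CPM in cerebellum. The groups did not overlap, and A1G replicate 2 was the highest tumour library (log2 fold change -1.01, SE 0.24, adjusted p = 0.00474). Sdhb, the iron-sulfur subunit, was at 54.7% of cerebellum (adjusted p = 0.00894) and Sdhc, a membrane anchor, at 59.4% (adjusted p = 0.0178), again with no overlap. Sdhd, the other anchor, had 20.8 to 43.5 CPM in tumours and 65.4, 60.5 and 29.8 CPM in cerebellum, so that cerebellum replicate 3 fell within the tumours (log2 fold change -0.66, SE 0.31, adjusted p = 0.103). Without cerebellum replicate 3 Sdhd was called (adjusted p = 0.0271), and without cerebellum replicate 2 the call of Sdhc ended (adjusted p = 0.114).

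Complex III, which hands electrons to cytochrome c, had all 8 fitted changes below 0 and 3 called lower. The small subunit gene Uqcr10 (chr11:4701973-4704342) had 9.95, 11.2 and 6.99 CPM in A1G tumours, 8.93, 11.8 and 10.7 in Ptch1 tumours and 53.8, 24.9 and 31.7 CPM in cerebellum. The tumour libraries lay close together and well below cerebellum (log2 fold change -1.88, SE 0.31, adjusted p = 0.000401). The core protein Uqcrc1 was at 45.4% of cerebellum without overlap (adjusted p = 0.000589). Uqcrfs1, the Rieske iron-sulfur protein, was at 78.5% and was not called (adjusted p = 0.195). Uqcrh, the hinge subunit for cytochrome c1, had a mean of 256 rescaled FPKM in A1G tumours, 369.9 in Ptch1 tumours and 515 in cerebellum, the highest of complex III, and its log2 fold change in CPM was -0.74 (SE 0.29, adjusted p = 0.0608). Without A1G replicate 2, its highest A1G library, Uqcrh was called (adjusted p = 0.00364), as it was without Ptch1 replicate 2 (adjusted p = 0.0307). Of 5 electron carrier genes outside the rule 1 was lower, against 21.5% of all tested genes. The 5 carrier genes included cytochrome c1 (Cyc1), which was lower (-1.33, adjusted p = 0.00675), and somatic cytochrome c (Cycs), which was not called (-0.98, adjusted p = 0.0706).

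Complex IV, cytochrome c oxidase, had the lowest median of the complexes, at -1.15, with 9 of 18 tested members lower and 1 higher. Of its 11 main isoforms, 8 were lower. Cox5b (chr1:36691449-36693681), a zinc-binding subunit, had 17.0, 26.8 and 16.0 CPM in A1G tumours, 12.6, 13.6 and 15.3 in Ptch1 tumours and 67.2, 75.4 and 67.5 CPM in cerebellum. A1G replicate 2 lay above the other tumour libraries, but no tumour library overlapped cerebellum. The log2 fold change was -2.07 (SE 0.24, adjusted p = 2.88e-05). Cox8a (chr19:7215153-7217616), a small subunit of the membrane part, had 75.6, 128 and 73.6 CPM in A1G tumours, 56.6, 64.9 and 66.3 in Ptch1 tumours and 262, 229 and 204 CPM in cerebellum, a log2 fold change of -1.61 (SE 0.23, adjusted p = 0.000124) with no overlap. Cox6a1 (chr5:115345642-115348981), the liver-type isoform that brain also uses, had 17.3, 55.2 and 24.7 CPM in A1G tumours, 10.3, 16.3 and 9.19 in Ptch1 tumours and 49.4, 79.4 and 129 CPM in cerebellum. Its log2 fold change of -2.11 (SE 0.38, adjusted p = 0.000735) was the largest among members with more than 100 fragments in all, although A1G replicate 2 lay above cerebellum replicate 1. Cox4i1, the regulatory subunit, was at 45.1% of cerebellum (adjusted p = 0.00271), and Cox6b1, Cox7a2 and Cox7b were at 49.3%, 45.3% and 44.6%. The call of Cox6b1 ended without cerebellum replicate 2 (adjusted p = 0.0718), that of Cox7a2 without cerebellum replicate 3 (adjusted p = 0.0622) and that of Cox7b without cerebellum replicate 1 or 2 (adjusted p = 0.0529 and 0.0785).

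**Figure D2:**
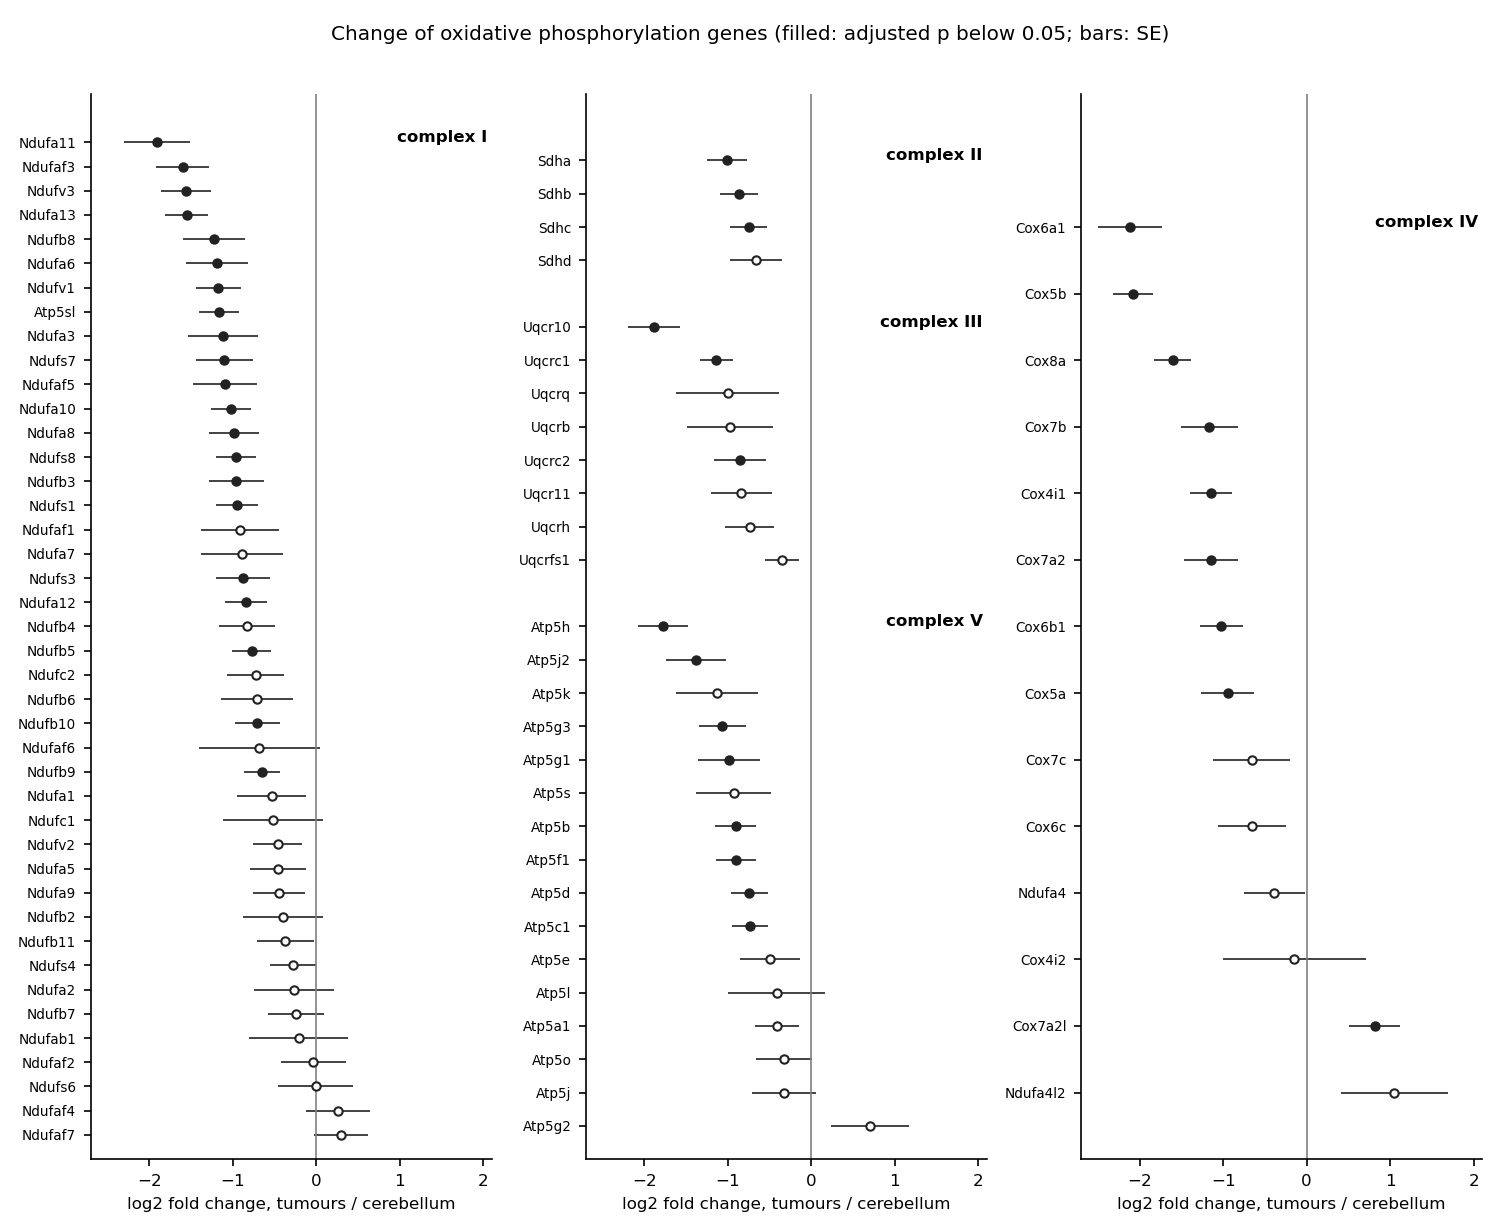
Log2 fold change (horizontal axis) of each tested member in the mean of the tumours against cerebellum, with its SE; filled circles had an adjusted p under 0.05 (edgeR). Cox7a1, Cox8b, Cox6b2 and Cox7b2, with few fragments, and 1 complex I member not reported here are left out; Cox7a2l at 0.82 is the only filled circle above 0.

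Tissue isoforms of complex IV were near the limit of detection. Cox7a1, the heart and muscle isoform of subunit 7a, had 0, 0 and 0 fragments in A1G tumours, 0, 1 and 0 in Ptch1 tumours and 2, 3 and 15 in cerebellum. With 1 fragment over the tumours and 20 over cerebellum, the ratio relative to TMM-scaled library size was 0.0250 (exact 95% interval 0.000603 to 0.156, counting error only). Of the 20, 15 came from cerebellum replicate 3. Cox7a1 is among the members called lower (adjusted p = 0.00726), and the call ended without that library (adjusted p = 0.0634). With a fragment in only 1 tumour library, Cox7a1 could meet the criterion of 1 FPKM in 3 libraries only with cerebellum libraries. A call in the other direction was therefore not possible, and its place among the members called lower or without overlap adds no support. Muscle markers summed to 3.69 to 6.24 CPM in A1G tumours, 2.299 to 8.93 in Ptch1 tumours and 12.3 to 15.3 CPM in cerebellum, with Ckm at 0 in every tumour library. Of 2 muscle markers tested, edgeR called 0 (1 at an unadjusted p under 0.05), and DESeq2 and limma called 1 each. Their part in the Cox7a1 counts was not tested. Cox6b2, the testis isoform, had 19 fragments in tumours and 35 in cerebellum, and was not called (adjusted p = 0.149). Cox7b2 and Cox8b had 5 and 2 fragments over the tumour libraries and 8 and 7 over cerebellum, without a call, and Cox6a2 had 2 in tumours and 2 in cerebellum. Cox8c had 0 fragments in every library. Cox4i2, the isoform linked to low oxygen in lung, was at 0 to 5.53 CPM in tumours and 1.997 to 2.89 CPM in cerebellum (adjusted p = 0.908).

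The member that was higher in tumours was Cox7a2l (chr17:83501918-83517330), known as a supercomplex factor of complex IV. It had 114, 147 and 95.4 CPM in A1G tumours, 112, 181 and 90.8 in Ptch1 tumours and 101, 52.9 and 56.1 CPM in cerebellum. Cerebellum replicate 1 overlapped the tumours, and the log2 fold change was 0.82 (SE 0.31, adjusted p = 0.0475). The call ended under median-of-ratios scaling (adjusted p = 0.0554) and under a filter of 5 FPKM (adjusted p = 0.0602). Over the fits without 1 library the adjusted p ranged from 0.0158 to 0.195, and it was above the threshold without A1G replicate 1 or 2, Ptch1 replicate 1 or 2, or cerebellum replicate 2 or 3. Of the summed rescaled FPKM of Cox7a1, Cox7a2 and Cox7a2l, Cox7a2l took 81.2%, 83.8% and 87.4% in A1G tumours, 82.4%, 89.1% and 89.2% in Ptch1 tumours and 70.2%, 51.0% and 45.0% in cerebellum. The tumour shares lay above all cerebellum shares. Ndufa4, a subunit now assigned to complex IV, and its paralogue Ndufa4l2, known to be induced by low oxygen, had log2 fold changes of -0.38 (adjusted p = 0.429) and 1.05 (adjusted p = 0.209), and their libraries overlapped between tumours and cerebellum.

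**Figure D3:**
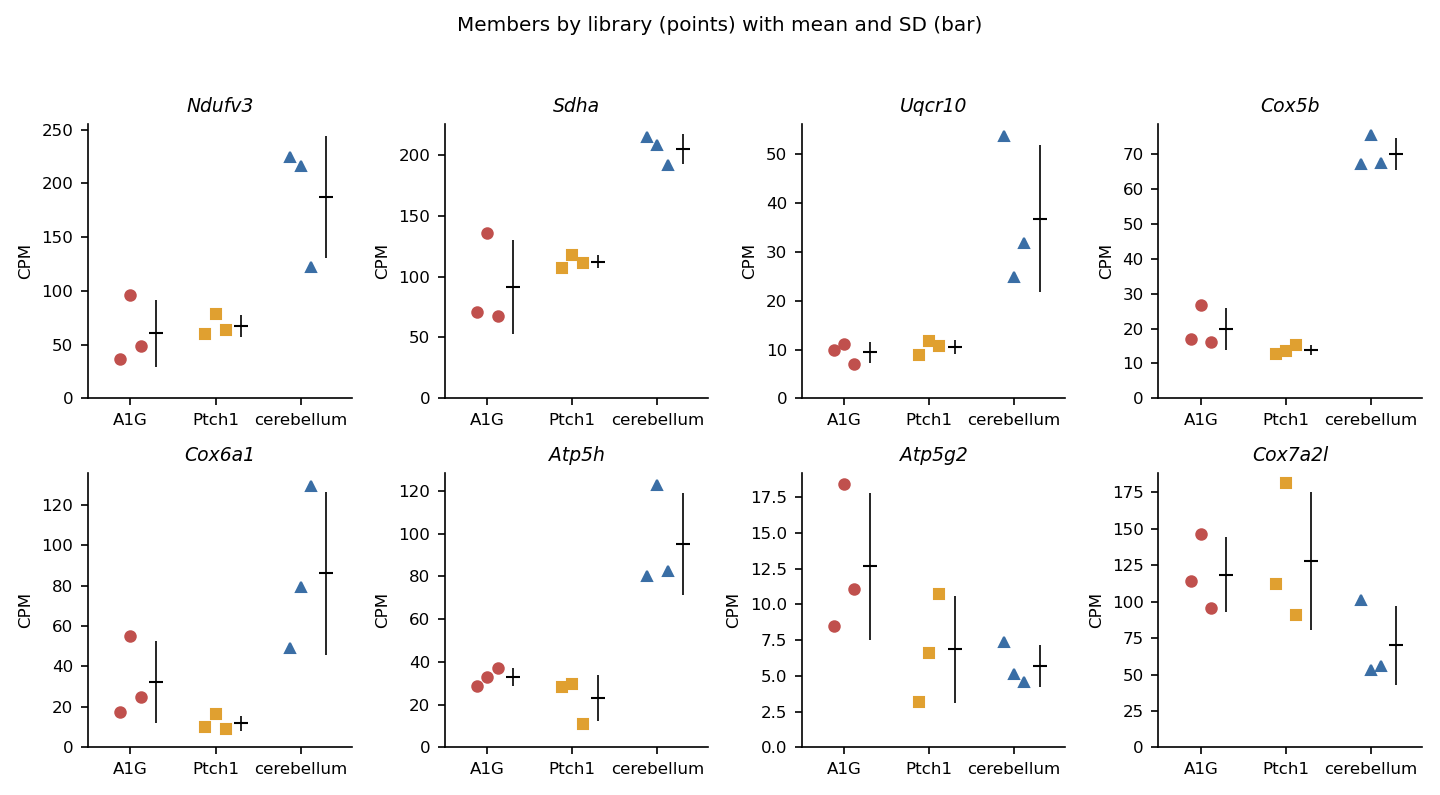
CPM of 8 members in every library, with A1G tumours, Ptch1 tumours and cerebellum from left to right; points are libraries, and the bar beside them is the mean with its SD (n = 3). Cox5b is at 12.6 to 26.8 CPM in tumours and 67.2 to 75.4 CPM in cerebellum, while Atp5g2 and Cox7a2l overlap between tumours and cerebellum.

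Complex V, ATP synthase, had 8 of 16 members lower and a median of -0.82. The catalytic subunit beta, Atp5b, had the highest rescaled FPKM of all members, with means of 387 in A1G tumours, 628 in Ptch1 tumours and 923 in cerebellum. In CPM it had 692, 623 and 639 in A1G tumours, 860.2, 1156 and 1152 in Ptch1 tumours and 2107, 1506 and 1046 in cerebellum. Cerebellum replicate 3 lay below the higher Ptch1 libraries, and the log2 fold change was -0.90 (SE 0.25, adjusted p = 0.0107), a call that ended without cerebellum replicate 1 (adjusted p = 0.0768). Its partner in the catalytic head, subunit alpha (Atp5a1), was at 75.4% of cerebellum and was not called (adjusted p = 0.231). The gamma subunit of the central stalk, Atp5c1 (chr2:10056016-10080510), had 57.1, 77.97 and 52.2 CPM in A1G tumours, 57.9, 68.6 and 56.3 in Ptch1 tumours and 102, 118 and 88.9 CPM in cerebellum, without overlap (log2 fold change -0.74, SE 0.21, adjusted p = 0.0151), a call that ended without cerebellum replicate 2 (adjusted p = 0.0955). In the peripheral stalk, which holds the head still, Atp5h (chr11:115415689-115419962) had 28.8, 32.7 and 37.0 CPM in A1G tumours, 28.4, 29.9 and 10.7 in Ptch1 tumours and 80.1, 123 and 82.5 CPM in cerebellum. No library overlapped, and the log2 fold change was -1.78 (SE 0.30, adjusted p = 0.000454).

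The rotating c ring of complex V is encoded by Atp5g1, Atp5g2 and Atp5g3, whose proteins are identical once their import signals are removed. Atp5g3 had 15.5, 12.8 and 11.9 CPM in A1G tumours, 13.1, 9.44 and 7.66 in Ptch1 tumours and 23.6, 23.7 and 25.8 CPM in cerebellum, without overlap (log2 fold change -1.07, SE 0.28, adjusted p = 0.00929). Atp5g2 had 8.48, 18.4 and 11.1 CPM in A1G tumours, 3.21, 6.63 and 10.7 in Ptch1 tumours and 7.35, 5.17 and 4.59 CPM in cerebellum. All A1G libraries lay above cerebellum but the Ptch1 libraries overlapped it, and the gene was not called (log2 fold change 0.70, SE 0.47, adjusted p = 0.253). Atp5g1 was at 50.5% of cerebellum (adjusted p = 0.0471), and its call ended without a filter on low values (adjusted p = 0.0924) and in 7 of the 9 fits without 1 library. Of the summed rescaled FPKM of these genes Atp5g2 took 27.2%, 46.7% and 37.1% in A1G tumours, 18.2%, 32.9% and 49.0% in Ptch1 tumours and 18.8%, 12.03% and 12.7% in cerebellum, with Ptch1 replicate 1 below cerebellum replicate 1.

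**Figure D4:**
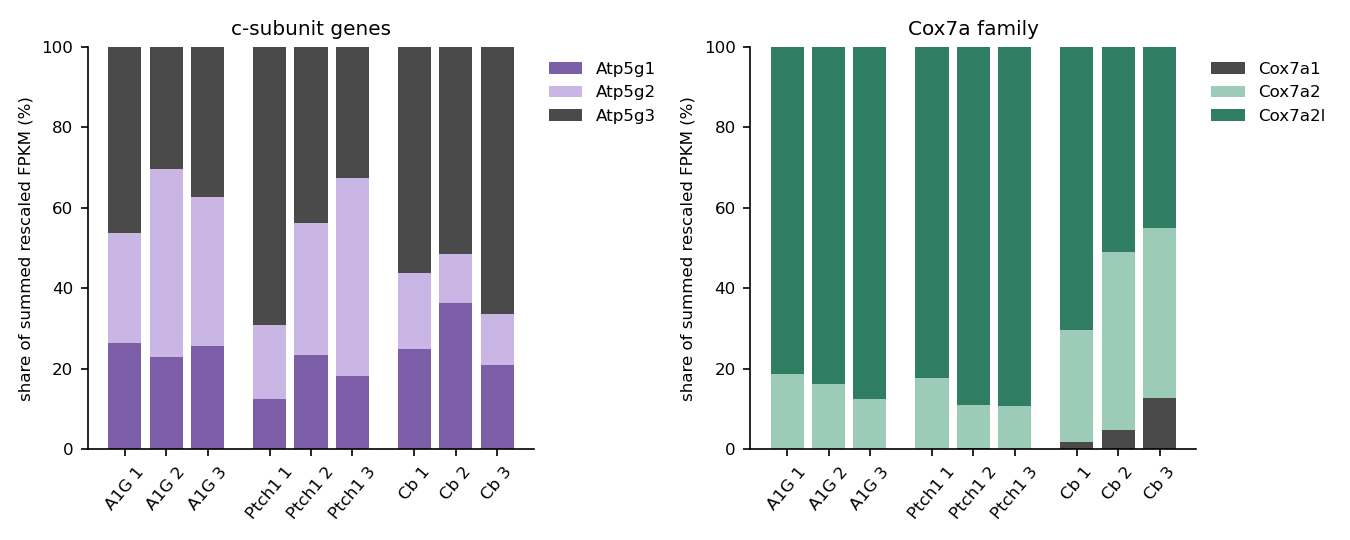
Share of the summed rescaled FPKM (vertical axis, in percent) of the genes encoding subunit c of complex V (left) and of the Cox7a family of complex IV (right) in each library, with A1G tumours, Ptch1 tumours and cerebellum (Cb) from left to right. Cox7a2l takes 81.2% to 89.2% in tumours and 45.0% to 70.2% in cerebellum, whereas the share of Atp5g2 overlaps.

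Both tumour kinds were also set against the same 3 cerebellum libraries one by one. In A1G tumours 35 of 89 members were lower and 0 higher (16.1% and 16.3% of all tested genes), with a median of -0.94. In Ptch1 tumours 29 were lower and 0 higher (19.7% and 20.2% of all tested genes), with a median of -0.77. DESeq2 called 42 lower in A1G tumours (18.3% of all tested genes) and 35 lower in Ptch1 tumours (22.2%), with 0 higher in each (17.8% and 20.8% of all tested genes). At an unadjusted p under 0.05, edgeR had 50 members in A1G tumours (56.2%, against 42.6% of all tested genes) and 39 in Ptch1 tumours (43.8%, against 48.5%) in either direction. The limma fit called 1 member higher in A1G tumours (Ndufa4l2) and 0 in Ptch1 tumours, against 16.9% and 20.5% of all tested genes. In A1G tumours the number lower was 20 without A1G replicate 1 (22.5%, against 12.5% of all tested genes), 18 without A1G replicate 3 (20.2%, against 13.3%), 21 without cerebellum replicate 1 (23.6%, against 13.2%) and 19 without cerebellum replicate 2 (21.3%, against 11.8%). In Ptch1 tumours it was 16 without Ptch1 replicate 1 (18.0%, against 15.7%), 16 without Ptch1 replicate 3 (18.0%, against 17.7%) and 14 without cerebellum replicate 2 (15.7%, against 15.6%), shares close to those of all tested genes.

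Between A1G and Ptch1 tumours 0 of 89 members were called by edgeR, and DESeq2 and limma also called 0. Over all tested genes edgeR called 0.0139% in this comparison, DESeq2 1.14% and limma 0.0%. At an unadjusted p under 0.05 there were 5 members (5.62%, against 10.6% of all tested genes), and the median change was -0.14. The members of smallest p were Cox6a1 (log2 fold change of A1G over Ptch1 tumours 1.42, SE 0.48, adjusted p = 0.340), Ndufa3 (1.35, SE 0.51, adjusted p = 0.389), Atp5g1 (1.18, SE 0.45, adjusted p = 0.389), Ndufs8 (-0.72, SE 0.29, adjusted p = 0.411) and Atp5b (-0.70, SE 0.29, adjusted p = 0.434). Their A1G and Ptch1 libraries did not overlap, which adds no support, since these members were picked by p in this same comparison. Atp5g1, for example, had 11.1, 12.2 and 10.3 CPM in the A1G libraries, against 2.98, 6.29 and 5.36 CPM in the Ptch1 libraries. Over all members, 8 were lower in A1G tumours without overlap (8.99%, against 8.84% of all tested genes) and 7 higher (7.87%, against 6.7%). A lack of calls does not show that the tumour kinds were alike.

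Factors that drive mitochondrial gene expression included lower and higher genes. Of 14 listed regulators 6 were lower and 3 higher in tumours, against 21.5% and 20.7% of all tested genes. The number higher was thus near the share of all tested genes. The coactivator gene Ppargc1a had 2.95, 6.24 and 6.17 CPM in A1G tumours, 1.14, 4.27 and 2.299 in Ptch1 tumours and 30.2, 47.1 and 60.1 CPM in cerebellum (log2 fold change -3.61, SE 0.40, adjusted p = 1.96e-05). Its relative Ppargc1b changed by -5.39 (SE 0.51, adjusted p = 6.69e-06). Their nuclear receptor partners Esrra (-1.79), Esrrb (-4.85) and Esrrg (-4.63) were lower too, Esrrg with 2.95, 5.61 and 14.8 CPM in A1G tumours, 3.66, 2.02 and 0.383 in Ptch1 tumours and 93.2, 108 and 103 CPM in cerebellum. Nrf1, which binds promoters of many respiratory genes, was higher, with 150.4, 80.8 and 119 CPM in A1G tumours, 171, 185 and 192 in Ptch1 tumours and 78.3, 57.8 and 51.9 CPM in cerebellum. No tumour library of Nrf1 overlapped cerebellum (log2 fold change 1.22, SE 0.26, adjusted p = 0.00215). Gabpa, the DNA-binding subunit of an ETS factor of the same promoters, rose by 1.33 (adjusted p = 0.00180), and exons of Gabpa overlap those of Atp5j. Tfam, which packages mitochondrial DNA and takes part in its transcription, was not called (0.20, adjusted p = 0.614). Polrmt, the gene of the mitochondrial RNA polymerase, was lower without overlap (-0.94, SE 0.24, adjusted p = 0.00686).

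**Figure D5:**
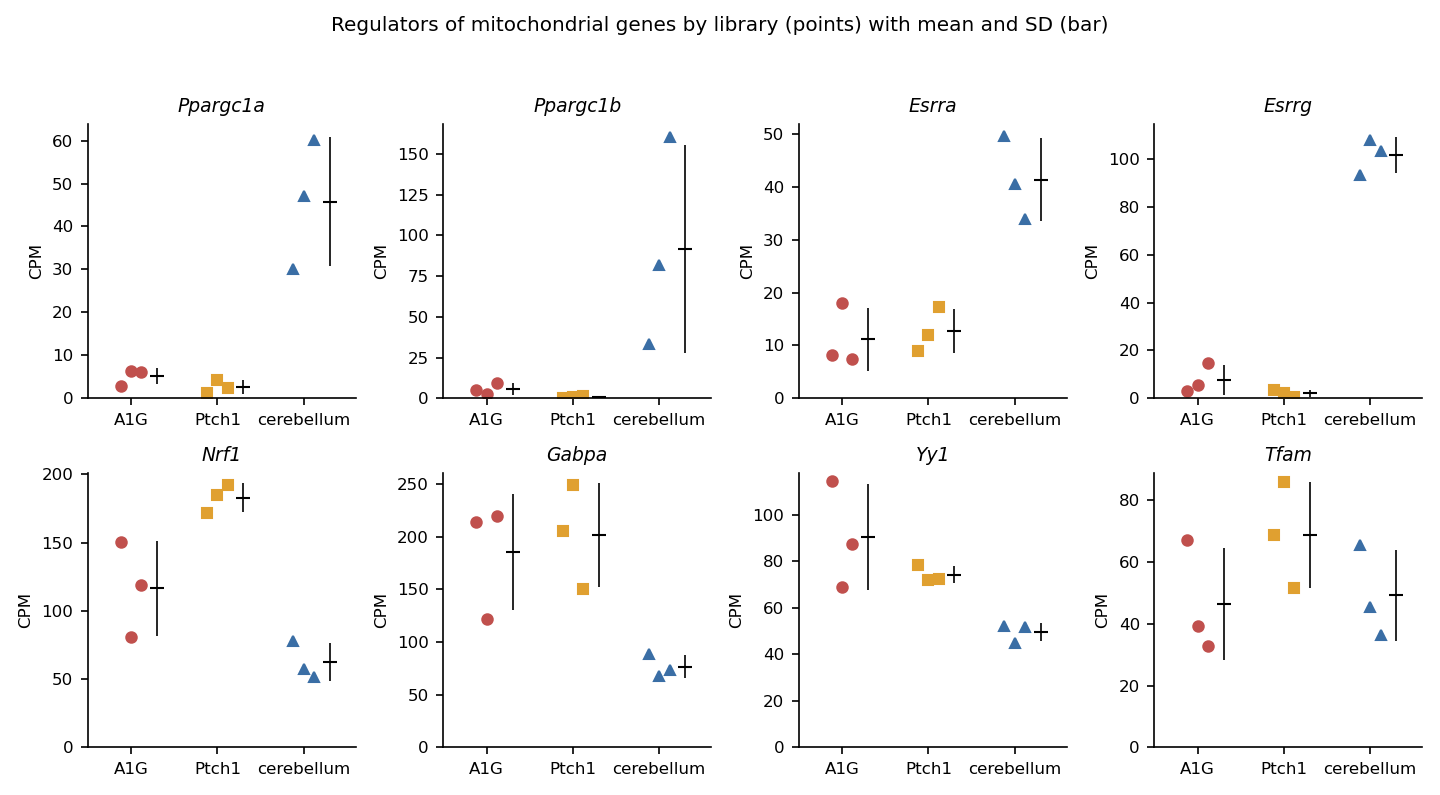
CPM of 8 regulators of mitochondrial genes in every library, with A1G tumours, Ptch1 tumours and cerebellum from left to right; points are libraries, and the bar beside them is the mean with its SD (n = 3). Ppargc1a, Ppargc1b, Esrra and Esrrg are below cerebellum in all 6 tumour libraries, Nrf1, Gabpa and Yy1 are above it, and Tfam overlaps.

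Promoters are shown for 5 members, picked after their values were seen, as examples of members that were lower (Cox6a1, Atp5h and Sdha) and of members with a positive fitted change (Atp5g2 and Cox7a2l). Sequences are the 250 bases upstream of the RefSeq start (GRCm38.p6), read 5′ to 3′ on the strand of the gene, which is the minus strand for all 5. They lie at chr5:115348959-115349208, chr11:115419920-115420169, chr13:74350241-74350490, chr15:102671048-102671297 and chr17:83514334-83514583, in the order printed. For all 5 the RefSeq start lies inside the span that GENCODE M21 gives the gene. For Atp5g2 and Cox7a2l the whole window lies inside that span, whose upstream ends are at 102672352 and 83517330. Their windows therefore describe an internal start only. Capitals mark matches, on either strand, to the letters CGCANGCG of an NRF1 motif and CCGGAAG of an ETS motif.
Cox6a1: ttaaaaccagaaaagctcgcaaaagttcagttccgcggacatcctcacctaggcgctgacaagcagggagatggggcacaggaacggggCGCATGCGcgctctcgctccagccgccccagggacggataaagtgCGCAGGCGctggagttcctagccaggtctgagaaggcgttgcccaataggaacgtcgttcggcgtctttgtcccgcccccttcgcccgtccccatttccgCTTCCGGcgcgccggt
Atp5h: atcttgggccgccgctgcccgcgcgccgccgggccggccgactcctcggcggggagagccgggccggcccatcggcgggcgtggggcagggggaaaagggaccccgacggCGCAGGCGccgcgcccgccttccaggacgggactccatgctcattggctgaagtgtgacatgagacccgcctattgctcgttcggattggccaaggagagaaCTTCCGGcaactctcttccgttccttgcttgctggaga
Sdha: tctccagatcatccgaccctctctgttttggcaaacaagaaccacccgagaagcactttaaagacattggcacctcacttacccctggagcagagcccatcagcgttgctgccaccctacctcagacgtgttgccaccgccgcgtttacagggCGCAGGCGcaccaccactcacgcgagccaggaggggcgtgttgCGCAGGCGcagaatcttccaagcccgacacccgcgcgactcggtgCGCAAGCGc
Atp5g2: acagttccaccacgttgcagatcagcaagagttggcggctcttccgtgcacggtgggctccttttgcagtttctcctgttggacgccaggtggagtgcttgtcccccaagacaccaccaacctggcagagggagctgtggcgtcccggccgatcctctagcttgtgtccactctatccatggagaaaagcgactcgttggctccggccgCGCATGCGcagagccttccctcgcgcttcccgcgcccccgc
Cox7a2l: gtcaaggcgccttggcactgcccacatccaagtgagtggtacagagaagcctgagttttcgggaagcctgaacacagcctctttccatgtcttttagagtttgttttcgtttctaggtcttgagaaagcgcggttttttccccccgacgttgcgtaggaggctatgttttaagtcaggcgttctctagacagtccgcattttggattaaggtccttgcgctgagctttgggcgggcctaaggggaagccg
The Cox6a1 window held 2 NRF1 matches and 1 ETS match, that of Atp5h 1 of each, that of Sdha 3 NRF1 matches, that of Atp5g2 1 NRF1 match and that of Cox7a2l none, so the windows shown hold NRF1 matches more often than those of the members as a whole. RefSeq windows were found for 76 members, in 82 windows. The NRF1 letters were in 28.0% of these windows, against 6.76% of 32851 windows of all genes. The ETS letters were in 15.9%, against 6.91% of all windows. Those of YY1 (ATGGCGG) were in 8.54%, against 2.21%, those of the oestrogen-related receptors (AAGGTCA) in 6.10%, against 4.08%, and those of an E-box (CACGTG) in 10.98%, against 6.02%. Among windows of members called lower, 23.8% held the NRF1 letters, 9.52% the ETS letters, 2.38% the YY1 letters, 2.38% the receptor letters and 14.3% the E-box. Among windows of the other tested members these shares were 30.8%, 23.1%, 15.4%, 7.69% and 7.69%, and these differences were not tested. These matches describe letters in a window and not binding.

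Other genes of mitochondrial energy supply are given from lists by function, beside 21.5% lower and 20.7% higher among all tested genes. For the tricarboxylic acid cycle and pyruvate dehydrogenase, 8 of 19 genes were lower, with a median of -0.64. Idh3b, a subunit of the NAD-dependent isocitrate dehydrogenase, changed by -1.79 (SE 0.22, adjusted p = 4.58e-05). The 1 gene of this list that was higher was Idh2, the NADP-dependent enzyme, with 106, 62.4 and 76.9 CPM in A1G tumours, 71.7, 81.8 and 94.2 in Ptch1 tumours and 19.7, 16.4 and 24.96 CPM in cerebellum (log2 fold change 2.01, SE 0.27, adjusted p = 9.36e-05). Assembly and copper delivery genes of complex IV were lower for 6 of 18, led by Pet100 (-2.68, SE 0.28, adjusted p = 1.22e-05) and Sco2 (-1.56, adjusted p = 0.0149). Of 5 tested genes for the exchange of ADP, phosphate and creatine phosphate, 4 were lower, led by mitochondrial creatine kinase Ckmt1 (-4.36, SE 0.55, adjusted p = 5.19e-05) and cytosolic Ckb (-1.89, adjusted p = 2.57e-05).

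Other mitochondrial lists differed in their medians. Their counts also stand beside 21.5% lower and 20.7% higher among all tested genes. Of 76 genes of the mitochondrial ribosome, which translates the mitochondrially encoded subunits, 2 were lower and 3 higher, and their median was 0.14. Mrpl33 (1.54) and Mrps33 (1.11) had the largest increases, and Mrpl48 (-1.44) and Mrps12 (-1.38) were the genes that were lower. Protein import genes, with a median of -0.06, had 2 lower (Timm8b, -1.05, and Vdac1, -0.91) and 3 higher of 22, led by the chaperonin Hspe1 (1.05) and the carrier chaperone Timm8a1 (0.95). Among 9 genes that stabilise the inner membrane or supercomplexes, whose median was -0.70, 3 were lower, led by Chchd10 (-4.24) and Higd1a (-1.42), and the prohibitin gene Phb2 was higher (1.52). Of 3 tested genes for uncoupling or alternative oxidation, Slc25a14 was lower (-1.50) and Slc25a27 higher (0.74). For complex III, the assembly gene Ttc19 was lower (-0.90), 1 of 3 tested. Of 2 complex II assembly genes 0 were called by edgeR, DESeq2 or limma, or had an unadjusted p under 0.05. Of 5 complex V assembly and regulatory genes edgeR called 0 (1 at an unadjusted p under 0.05), and DESeq2 and limma called 1 each.

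Members are short genes, and 60 of 89 fell in the shortest of 10 equal length groups of tested genes, by the length implied in the deposited values. All tested genes of that group had a median change of -0.01 in tumours against cerebellum, and its members had -0.86. In that group 15.5% of all tested genes were lower, and 28 of the 60 members. Single libraries also shifted with length, in log2 deviation from the mean of their tissue. In A1G replicate 2 the median was 0.18 over the shortest group of all tested genes and -0.23 over the longest. These medians were 0.14 and -0.047 in Ptch1 replicate 2, and -0.074 and 0.16 in cerebellum replicate 3. Members in the shortest group deviated by 0.30, 0.25 and -0.24 in these libraries. The part of length in the shifts of members was not tested. Exons of 26 members overlap a protein-coding neighbour in GENCODE M21, among them Ndufa11 (Vmac), Ndufa13 (Tssk6), Ndufaf3 (Impdh2), Cox4i1 (Emc8), Ndufa3 (Tfpt) and Ndufa4l2 (Shmt2). The sources used here do not state whether counting used strand, so reads of such pairs may not be separable. Non-whole values occurred in 7 members (Atp5f1, Atp5j, Ndufa13, Ndufb11, Ndufs1, Ndufs5 and Uqcrc2). Ndufs5 had fragments only in A1G replicate 2 (37.8) and cerebellum replicate 3 (12.8) and was listed near 0 elsewhere. Many respiratory genes have near-identical processed copies in the genome, and the sources used here do not state how fragments were divided among copies.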

How the data were processed

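RNA was measured in 9 libraries, 3 per group, sequenced on an Ion Proton after ribosomal RNA depletion, per the labels' protocols. Per the submitters' processing notes the build was mm10 and Bowtie 0.12.2 was used; the counting tool, annotation and strand setting are not given in the sources used here. Per the file headers, the deposited expected counts are raw fragments per gene, the deposited signal columns are fragments scaled by the authors, and the deposited FPKM values are per kilobase of those. Tumours and cerebellum had been scaled separately by the authors, since FPKM per scaled fragment in cerebellum was 0.808 of that in tumours, so fragments were scaled again over all 9 libraries and levels per length are rescaled to 1 scale.

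Fragments were rounded and fitted with edgeR 4.0.16 (TMM scaling, glmQLFit and glmQLFTest, 1 mean per group over all 9 libraries, a minimum of 1 FPKM in 3 libraries, Benjamini-Hochberg adjustment over 14337 genes, threshold 0.05). Alternatives were median-of-ratios scaling, no filter, a filter of 5 FPKM, DESeq2 1.42.0, limma 3.58.1 on log2(FPKM + 1), a replicate block, and leaving out each library. The limma fit used the deposited FPKM, in which tumours and cerebellum had been scaled separately. The fits ran in R 4.3.3 and the summaries in Python 3.11.15 with pandas 2.3.3, SciPy 1.17.1, NumPy 2.4.6 and matplotlib 3.10.9. Exact binomial intervals and floors of 3 fragments cover counting error only. Depth was 2350941 to 9290237 fragments per library. Coordinates are from GENCODE M21 (90 of 92 members matched by symbol).

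The members, gene lists, marker lists and tests were chosen with earlier results of these data known. By rule, the text names per complex up to 4 members with the largest called change without overlap and the 2 of highest level. It also names the paralogue isoforms, all of complex II and the 5 of smallest p between tumour kinds. Per list, the rule names the 2 largest called changes in each direction. Other members named (Ndufv1, Ndufv2, Ndufaf4, Ndufaf7, Atp5sl, Uqcrfs1) and other genes (Cycs, Ppargc1a, Esrra, Esrrg, Tfam and Polrmt) were chosen after their values were seen. Of the genes this rule selects, 1 listed gene is not reported here.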

Additional observations from a re-analysis of the deposited data

How the results depend on the processing

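Under median-of-ratios scaling, no filter, a filter of 5 FPKM, DESeq2, limma on log2(FPKM + 1) and the replicate block, the number of members called in tumours against cerebellum was 40 to 48, beside 46 as reported. Leaving out libraries (each in turn, and A1G replicate 2 with cerebellum replicate 3) gave 24 to 49, the lowest without cerebellum replicate 2. For A1G tumours against cerebellum the fits that left out libraries gave 18 to 41, and for Ptch1 tumours 14 to 35. DESeq2 on all libraries called 42 members lower in A1G tumours and 35 in Ptch1 tumours. A set of 20 members was called in tumours against cerebellum in every fit without 1 library and under every alternative, among them Cox5b, Cox6a1, Cox8a, Atp5h, Ndufv3, Sdha and Uqcr10. Between A1G and Ptch1 tumours 0 members were called under every setting.

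Over the same fits the median change of complex III was -1.17 to -0.73, beside -0.92 as reported, and that of complex IV -1.26 to -0.93, beside -1.15. The sign of Cox4i2 turned in 3 fits without a tumour library (range over all -0.65 to 0.15) and that of Ndufb7 without cerebellum replicate 1 (-0.63 to 0.034), none of them called. Uqcrh was called under median-of-ratios scaling, the filter of 5 FPKM, DESeq2 and the block. The cause of these changes was not tested. Without a filter the median of all genes in tumours against cerebellum moved to 0.15.

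Replicate numbers were not treated as pairs. Correlations of same-numbered libraries ranged from -0.069 to 0.211, and those of differently numbered libraries from -0.253 to 0.239. With so few libraries these values cannot show whether a pairing exists. With the replicate block 44 members were called in tumours against cerebellum, 33 in A1G tumours, 26 in Ptch1 tumours and 0 between tumour kinds, and Atp5g1 lost its call (adjusted p = 0.0559). Depth limits the sparse isoforms of complex IV.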
